A study of Petunia x hybrida with 22 samples.

Results

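H3K27ac, acetylation of lysine 27 on histone H3, was compared between evening and morning in the petunia corolla, the fused petals of the flower. The islands described here, stretches of genome with clustered reads, are those of the 4 deposited H3K27ac lists: one list of islands lower and one of islands higher at 7PM than at 7AM, for each of 2 replicate pairs. They number 33316 of the 125384 islands listed for 4 histone marks, with 16342 in replicate 1 and 16974 in replicate 2. The groups were H3K27ac ChIP from corollas of Petunia × hybrida cultivar Mitchell taken at 7AM (2 libraries) and the same at 7PM (2 libraries). The plants had no other treatment in the labels and grew in a greenhouse under 14 h of light from 6AM and 10 h of dark from 8PM. Corolla chromatin was fixed with 1% formaldehyde. A corolla holds several cell types, and the number of flowers or plants behind a library is not given in the sources used here. A change of the mark in all cells therefore cannot be told apart from a change in some of them.

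H3K27ac is laid down by histone acetyltransferases and removed by histone deacetylases, and it marks promoters and enhancers in use. Unlike a methylated lysine, an acetylated one turns over quickly, so the mark can follow daily changes in gene activity. Mitchell petunia is a white-flowered line whose corolla makes and releases benzenoid and phenylpropanoid scent in the evening and at night, and the comparison asks where the mark differs between the start and the end of the light period. The lists hold scaffold positions and no genes, so places are given by scaffold and by 1-based start and end. Scaffold names begin with Peaxi162. The name of the genome build is not given in the sources used here.

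Replicate 1 was the deeper pair, with 11366924 reads at 7AM and 14140437 at 7PM, against 6721831 and 7945368 in replicate 2. Reads per island are given as counts or as CPM, the count per 1000000 library reads. A count of 3 reads, used as the detection floor, was 0.264 and 0.212 CPM in replicate 1 and 0.446 and 0.378 CPM in replicate 2, at 7AM and 7PM in that order. In all 33316 islands the CPM order of the 2 times was the one in the list's label. The lists contain only islands that the authors found to differ by at least 2.00-fold, so that every island differs by selection, and the folds below describe how strongly listed islands differed. Nearest to that limit was an island on Peaxi162Scf00288 (549801 to 555800) where replicate 1 had 290 reads in the morning and 180 in the evening. No value just outside the limit is in the lists used here. With 2 libraries per time an exact two-sided permutation test of a single value cannot go below p = 0.333, so none is given. Intervals below are exact binomial 95% intervals that treat islands or regions as independent draws, and they do not cover the spread between replicates.

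In both pairs the authors listed more islands with less H3K27ac in the evening than with more. Below, a loss is an island or region lower at 7PM and a gain one higher at 7PM. The share lower at 7PM was 75.5% ± 6.77 (mean and SD, n = 2 pairs). Islands lower at 7PM covered 21.5 Mb in replicate 1 and 18.0 Mb in replicate 2, whereas islands higher at 7PM covered 3.70 Mb and 6.57 Mb. Lower islands were found on 1256 and 1280 scaffolds and higher ones on 1036 and 1167. As a share of all reads of a library, the lower islands of replicate 1 held 8.31% at 7AM and 3.21% at 7PM, and those of replicate 2 held 5.87% and 2.07%. For the higher islands the shares were 0.354% and 0.946% in the first pair and 0.915% and 2.48% in the second. The gain in reads at higher islands was thus smaller than the loss at lower islands in each pair.

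Single islands were short, close to the span of a few nucleosomes up to a small gene. The median length was 1200 bp for lower islands in both replicates, 1000 bp for higher islands of replicate 1 and 1200 bp for those of replicate 2. The middle 50% of lower islands ran from 800 to 2000 bp in replicate 1 and from 800 to 1800 bp in replicate 2, and of higher islands from 600 to 1400 bp and from 800 to 1600 bp. All lengths were multiples of the 200 bp window. Islands of 400 bp or less made up 9.45% and 6.74% of the lower lists, and 17.1% and 12.4% of the higher lists. At the other end, 768 lower islands of replicate 1 (5.86%) and 341 of replicate 2 (2.84%) were longer than 4000 bp, against 48 (1.49%) and 102 (2.05%) of the higher islands. These long islands held 21.7% and 10.5% of the lower length, and 7.60% and 8.56% of the higher length. The longest lower islands reached 29600 bp and 19000 bp, and the longest higher islands 12600 bp and 14200 bp.

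Density, taken as CPM per kb of island in the library where the island was higher, differed little between lists. Its median was 2.79 and 2.76 CPM per kb for lower islands of replicates 1 and 2, and 2.30 and 2.77 for higher islands. In the other library of the pair, medians were 1.06 and 0.899 CPM per kb for lower islands and 0.846 and 0.930 for higher islands. Most islands rested on few reads: the median count in the higher library was 35 and 21 reads for lower islands, and 28 and 21 for higher islands. A minority was much stronger, since the upper 5% of lower islands began at 249 reads in replicate 1 and 89 in replicate 2. The median ratio of CPM between the times was 2.54 and 2.87 for lower islands, and 2.61 and 2.75 for higher islands. Ratios over 4 were reached by 12.1% and 22.7% of lower islands and by 14.6% and 19.2% of higher islands. One of the 2 libraries had 0 reads in 17 lower and 10 higher islands of replicate 1, and in 101 lower and 35 higher islands of replicate 2. Those islands have no finite ratio.

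The balance between loss and gain moved with the size of the island in replicate 1, and less so in replicate 2. Among islands of replicate 1, the share lower at 7PM went from 72.3% (70.8 to 73.7) at lengths up to 600 bp to 94.1% (92.3 to 95.6) above 4000 bp. In replicate 2 it went from 62.2% (60.5 to 63.9) to 77.0% (72.8 to 80.8) over the same classes. By reads in the higher library the replicates parted. Among islands of more than 200 reads, 94.7% (93.1 to 96.0) of 1014 islands were lower in replicate 1, but 57.9% (50.4 to 65.2) of 183 islands in replicate 2. By density, islands above 10 CPM per kb were lower in 95.7% of 257 cases in replicate 1 and in 50.6% of 164 cases in replicate 2. The strongest islands were therefore mostly losses in the first pair and an even mixture in the second. The part of depth in this was not tested.

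A listed island was more often found again in the other pair when it had more reads or was longer. Found again means an overlap of 1 bp or more, which is likelier for a longer island. Islands with more reads were also longer, and the part of length in these shares was not tested. Of the lower islands of replicate 1, 10.9% of those with up to 20 reads in the higher library and 46.7% of those with more than 200 were lower in replicate 2 as well. Of the lower islands of replicate 2, the shares were 22.4% and 82.1%. Higher islands of replicate 1 went from 5.02% with up to 20 reads to 61.7% of 128 islands with 101 to 200 reads and to 85.2% of 54 islands with more. Higher islands of replicate 2 were found again in at most 28.6% of a class, that of the 77 islands with more than 200 reads. By length the same order was seen. Above 4000 bp, 54.7% and 75.7% of lower islands and 87.5% and 31.4% of higher islands of replicates 1 and 2 were listed likewise in the other pair. Over all classes, 29.0% and 32.1% of the lower and 13.4% and 8.80% of the higher islands lay in regions of the same direction in both pairs. Most islands were in regions listed in one pair only, 69.5% and 66.9% of the lower and 83.3% and 87.4% of the higher ones. In length rather than number, 38.3% and 40.3% of the lower and 22.6% and 12.2% of the higher island length lay in regions of the same direction in both pairs.

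**Figure D1:**
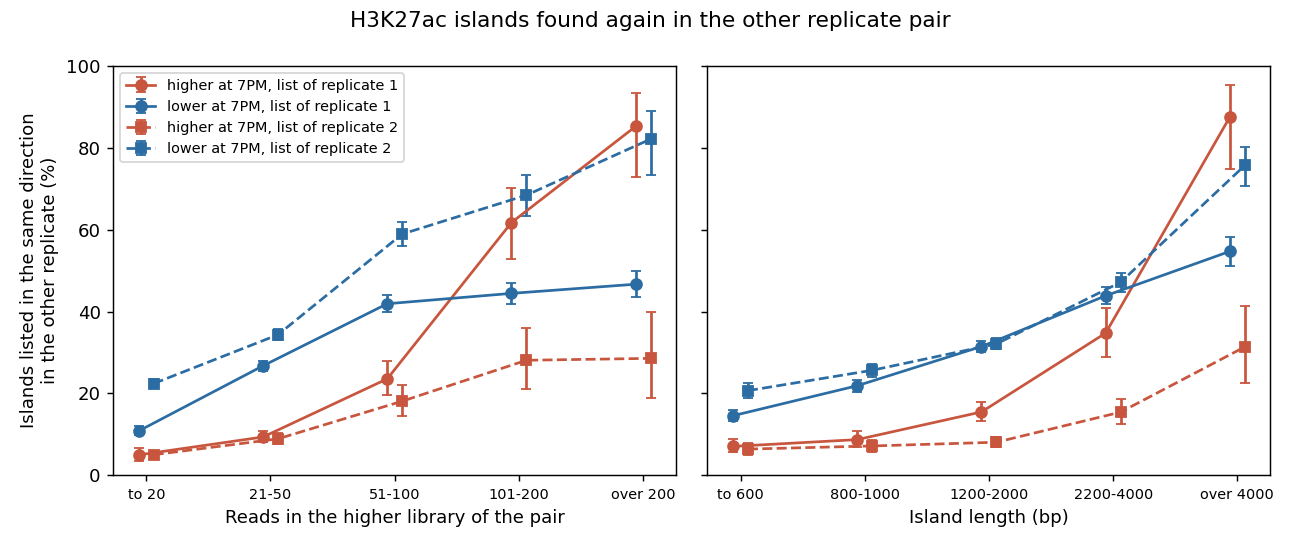
Share of listed H3K27ac islands (y axis, percent) that overlap an island of the same direction in the other replicate pair, by reads in the higher library of the pair (left) and by island length in bp (right). An overlap of 1 bp or more counts, which is likelier for longer islands. Blue is lower and red is higher at 7PM, circles with solid lines are the lists of replicate 1, squares with dashed lines those of replicate 2, and bars are exact binomial 95% intervals; within each list the class of fewest reads or shortest length has the lowest share of its panel, and the highest shares are 85.2% by reads and 87.5% by length, both for higher islands of replicate 1.

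Islands of both pairs that overlapped by 1 bp or more were joined into regions, which gave 4371 regions listed in both pairs with one direction in each. A further 22 regions held both directions within one pair and were left out, and 24181 regions were listed in only one pair. H3K27ac was lower in both pairs at 3680 regions and higher in both at 425. The pairs disagreed at 266 regions, 172 of them lower in replicate 1 and higher in replicate 2, and 94 the reverse. Where the higher library of each pair had 50 reads or more, 1156 of 1157 regions had the same direction (99.9%). Of the opposite regions 99.6% (265 of 266) lay below that limit, against 71.8% of regions with one direction. The exception, on Peaxi162Scf01159 (257401 to 260000), had 67 and then 40 reads in replicate 1, and 18 and then 59 in replicate 2.

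The opposite regions with most reads joined a long island of one pair with a short one of the other. On Peaxi162Scf02754 (65601 to 73200) an island of 7600 bp had 455 and then 256 reads in replicate 1, while one window of 200 bp inside it went from 0 to 10 reads in replicate 2, which is at least 2.82-fold higher against the floor of 3 reads in that library. On Peaxi162Scf00373 (1465601 to 1470600), 5000 bp went from 315 to 190 reads in replicate 1, and 400 bp from 3 to 13 reads in replicate 2 (ratio 3.67, counting interval 1.01 to 20.1). On Peaxi162Scf00159 (1777801 to 1783600) the pairs were exchanged: 800 bp went from 30 to 8 reads in replicate 1 and 5800 bp from 105 to 300 in replicate 2. The covered length of the longer pair was a median of 1.5 times that of the shorter in opposite regions and 1.33 times in regions of one direction. Reads of one pair over the interval of the other pair's island are not in the lists.

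H3K27ac fell at 3638 regions and rose at 418 by edgeR's quasi-likelihood test, blocked by replicate and adjusted by Benjamini-Hochberg at 0.05, which is 83.2% and 9.56% of the 4371 regions tested. The block is the study's own pairing, since the authors compared a 7AM with a 7PM library under each replicate number. No opposite region passed, and 42 lower and 7 higher regions did not. Since only regions already listed in each pair entered it, the test measures how closely the pairs agree within a chosen set. The split also rests on scaling by library totals. With TMM scaling, which centres the chosen regions near no change and moves log2 folds by a median of 1.41, it was 66 lower and 419 higher, and with median-of-ratios scaling (a median shift of 1.41) it was 64 and 418. All falls are therefore relative to the library total. Without the block the counts were 2838 lower and 344 higher. Leaving out 1 library from there, fewer regions passed each time. The median log2 fold was −1.30 without 7AM and −1.59 without 7PM of replicate 1, and −1.51 and −1.28 without those of replicate 2. Counts of the 2 pairs cover islands of different length, and fits without the block compare across pairs. The parts of island length and of library spread in these fits cannot be told apart.

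The plot of folds by pair shows how far the pairs matched in size of change. The median log2 ratio of 7PM to 7AM CPM was −1.43 in replicate 1 and −1.56 in replicate 2 over the lower regions, and 1.48 and 1.68 over the higher regions. Across regions, which are not independent and share their libraries, the log2 ratios of the pairs had a Pearson r of 0.33 over the 3680 lower regions (Spearman 0.27) and of 0.43 over the 425 higher ones (Spearman 0.29). Both values describe lists that begin at 2-fold. The ratio was larger in replicate 2 at 59.8% of lower and 68.0% of higher regions, and the median distance between pairs was 0.34 and 0.42 on the log2 scale. Ratios over 4 in both pairs were seen at 275 lower regions (7.47%) and 49 higher ones (11.5%), and ratios over 8 at 24 and 6.

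**Figure D2:**
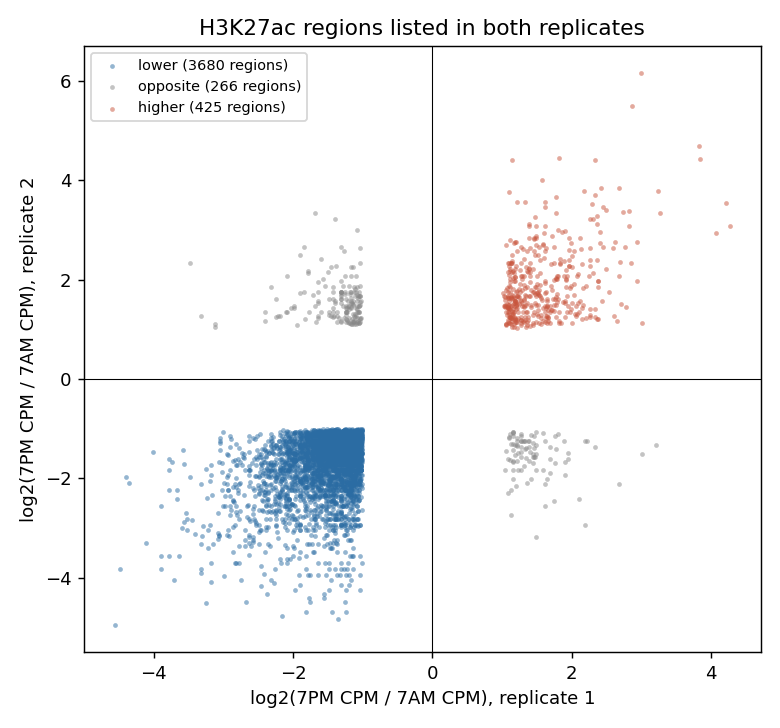
log2 ratio of 7PM to 7AM CPM in replicate 1 (x axis) and replicate 2 (y axis) for the 4371 H3K27ac regions listed in both pairs, with 3680 lower in both (blue), 425 higher in both (red) and 266 opposite (grey). The empty cross in the middle is the authors' 2-fold limit, where no island is listed.

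Losing and gaining regions were near mirror images in density. Median density of lower regions went from 3.08 to 1.11 CPM per kb in the first pair, 7AM to 7PM, and from 2.98 to 0.944 in the second. That of higher regions went from 0.977 to 2.83 and from 0.967 to 3.38. The middle 50% of the 2 times did not overlap in either pair or direction: the upper quartile at 7AM of higher regions was 1.32 and 1.36 CPM per kb, and their lower quartile at 7PM 2.12 and 2.49. For lower regions the lower quartile at 7AM was 2.38 and 2.30 CPM per kb, and the upper quartile at 7PM was 1.503 and 1.35. The separation follows from the way the islands were chosen. The levels were not compared with the input samples, which have no values in the lists.

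**Figure D3:**
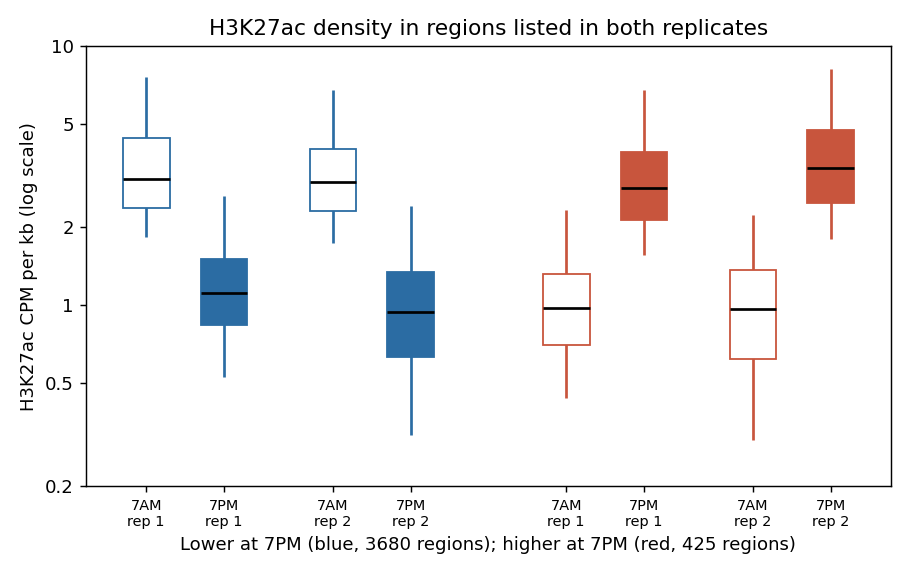
H3K27ac density in CPM per kb (y axis, log scale) at 7AM (open) and 7PM (filled) in each replicate for regions lower (blue, 3680) and higher (red, 425) at 7PM in both pairs. Boxes are the middle 50% of regions, black lines medians and whiskers the 5th to 95th percentile; medians are 2.83 to 3.38 CPM per kb at the higher time and 0.944 to 1.11 at the lower time.

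Regions in both pairs are unions of islands and so longer than single islands by construction. Their length had a median of 2000 bp for lower, 1800 bp for higher and 1400 bp for opposite regions. The shared part of the 2 pairs' islands was a median of 66.7% of the region for lower and for higher regions, and 50% for opposite ones. Borders were identical in both pairs at 304 lower and 51 higher regions. Density differed between length classes of lower regions: those up to 1000 bp, 529 in number, had a median of 3.26 CPM per kb at 7AM in replicate 1, those from 1200 to 2000 bp 2.82, those from 2200 to 4000 bp 3.08, and the 547 above 4000 bp 4.17 (3.35, 2.68, 2.98 and 3.57 in replicate 2). Density was thus lowest at middle lengths and highest in the longest lower regions of each pair. Among the 60 higher regions above 4000 bp the 7PM median was 3.71 CPM per kb in replicate 1 and 4.12 in replicate 2, against 2.39 and 2.83 in the 151 regions from 1200 to 2000 bp and 3.06 and 4.09 in the 99 up to 1000 bp. Changes over 4-fold in both pairs were seen at 13.8% of lower regions up to 1000 bp and at 6.03% of those above 4000 bp, while higher regions had 14.1% and 13.3% in these classes. Among all listed islands, lower ones up to 600 bp had median ratios of 3.02 and 3.55 in replicates 1 and 2. Those above 4000 bp had 2.40 and 2.42. Higher islands had 2.89 and 3.10 against 2.57 and 2.42. The part of read count and of the authors' fold and FDR limits in these differences was not tested.

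The largest gains described are the 10 higher regions with the largest ratio, taking the smaller of the 2 pairs' ratios, where both pairs had 50 reads or more at 7PM. Over these 10 regions, CPM at 7AM lay between 0.528 and 4.84 in replicate 1 and between 0.149 and 3.57 in replicate 2, and at 7PM between 6.44 and 42.8 and between 6.67 and 61.2. That both 7PM values were above both 7AM values in each of the 10, and that each passed the edgeR test (adjusted p 0.0062 to 0.0069, the 10 largest losses included), follows from the choice by ratio and is no further support.

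The first and the sixth gain lay on the same scaffold, Peaxi162Scf00002. At 345401 to 351400, the 7AM CPM was 2.99 and 2.83 in replicates 1 and 2 and the 7PM CPM 42.8 and 61.2, a mean log2 ratio of 4.14 ± 0.42 (SD, n = 2 pairs). At 316201 to 321000, the first pair had 14 and then 292 reads and the second 17 and then 153 (3.50 ± 0.81). Both places were also listed higher for H3K9ac, another acetylation mark of the same histone tail. Listed H3K9ac reads at the second went from 29 to 241 and from 40 to 306. On Peaxi162Scf00450 at 11801 to 18000 a 6200 bp region went from 55 to 484 and from 24 to 239 reads (2.95 ± 0.18), the smallest difference between pairs among the 10 gains. H3K27ac rose on Peaxi162Scf00825 at 229201 to 230600 from 18 to 158 and from 8 to 99 reads (3.10 ± 0.40). It rose on Peaxi162Scf00439 at 289401 to 291200 from 17 to 141 and from 8 to 97 reads (3.05 ± 0.44). At the 2 regions with 1 read at 7AM in replicate 2 the size of the gain is poorly fixed: on Peaxi162Scf00066 at 509801 to 511200 the first pair had 10 and then 91 reads and the second 1 and then 53, a ratio of 44.8 with a counting interval of 7.71 to 1804. The other such region, on Peaxi162Scf00655, had a ratio of 71.1 (12.4 to 2840). The remaining 3, on Peaxi162Scf00314, Peaxi162Scf00481 and Peaxi162Scf00740, had mean log2 ratios of 4.26 ± 0.61, 3.88 ± 0.48 and 3.52 ± 0.39.

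The 10 largest losses were chosen by the same rule, with at least 50 reads at 7AM. Over these regions CPM at 7PM was 0.778 to 4.10 in replicate 1 and 0.503 to 3.40 in replicate 2, after 7.74 to 41.6 and 7.59 to 37.8 at 7AM. Here too the separation of the times follows from the choice. The first was on Peaxi162Scf00092 at 1565601 to 1569600, where CPM went from 41.6 to 1.77 in the first pair and from 27.2 to 0.881 in the second, a mean log2 ratio of −4.75 ± 0.28 (SD, n = 2 pairs). H3K27ac fell on Peaxi162Scf00744 at 191601 to 194200 from 128 to 15 and from 66 to 9 reads (−3.26 ± 0.21). It fell on Peaxi162Scf00128 at 632401 to 635400 from 129 to 19 and from 55 to 7 reads (−3.15 ± 0.097). The pairs were closest on Peaxi162Scf00188 at 840601 to 843800, with 217 to 32 and 95 to 13 reads (−3.09 ± 0.024), and on Peaxi162Scf00010 at 3625001 to 3628600, with 202 to 30 and 97 to 13 reads (−3.10 ± 0.053). On Peaxi162Scf00316 at 487001 to 490800 the change was from 370 to 55 and from 166 to 22 reads (−3.11 ± 0.065). The 4 others were on Peaxi162Scf00408 (−3.58 ± 0.36), Peaxi162Scf01517 (−3.61 ± 0.42), Peaxi162Scf00472 (−3.88 ± 0.89) and Peaxi162Scf00439 (−3.24 ± 0.10). Of these 20 regions, the loss on Peaxi162Scf00472 no longer passed in edgeR fits without the block and without 7AM of replicate 1 or of replicate 2. Its log2 fold there was −3.04 and −3.88, against −3.50 with all libraries and the block. Its counts cover 3400 bp in replicate 1 and 1200 bp in replicate 2. In fits without the block this length difference and the library spread cannot be told apart.

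**Figure D4:**
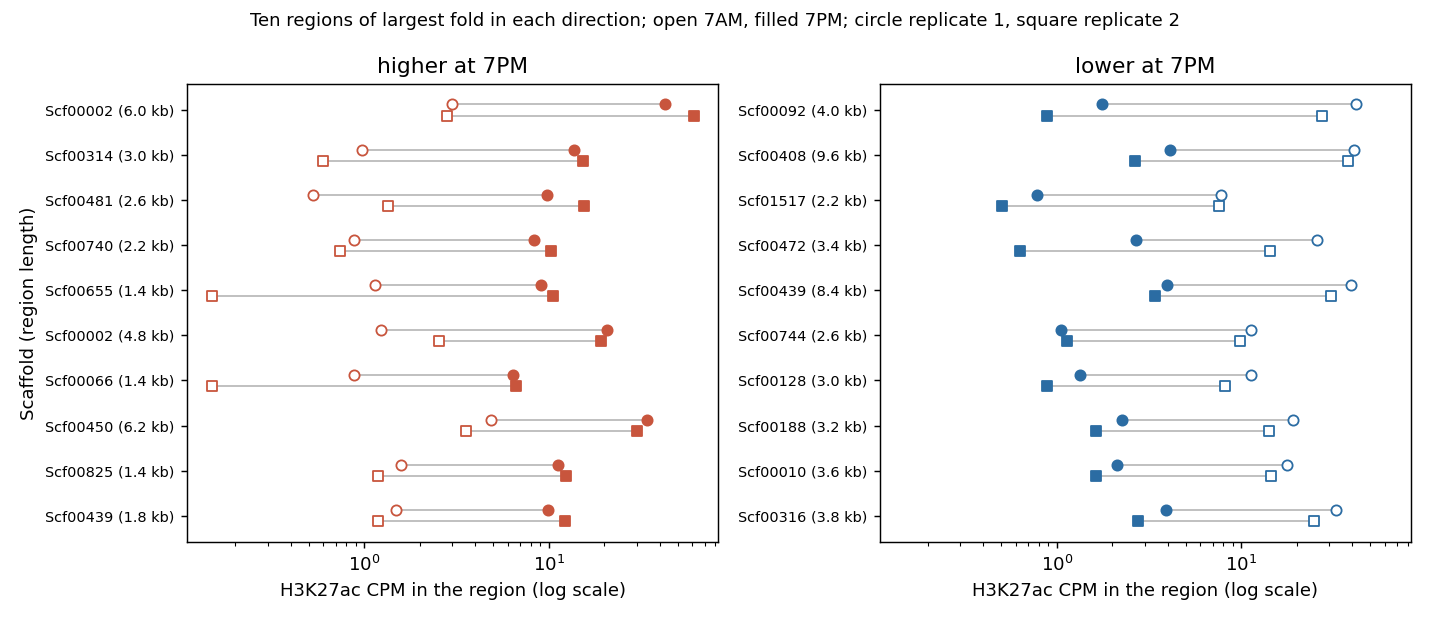
H3K27ac CPM (x axis, log scale) in the 10 regions of largest gain (left, red) and largest loss (right, blue) at 7PM, one region per row with its scaffold and length in kb. Open symbols are 7AM and filled ones 7PM, circles replicate 1 and squares replicate 2; the times are apart in every region because regions were chosen by ratio, and the losses end at 0.503 to 4.10 CPM.

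The longest regions were chosen by length alone, and the 547 losses above 4000 bp had median log2 ratios of −1.43 in both pairs. The longest region of all lay on Peaxi162Scf00408 at 200601 to 230200, 29600 bp, and it was covered unequally: replicate 1 went from 2701 to 1251 reads over the whole length, and replicate 2 from 409 to 49 reads over 9200 bp of it (mean log2 ratio −2.36 ± 1.33, SD, n = 2 pairs). The gap from its end to the loss at 236001 to 245600 on the same scaffold was under 10 kb. Next were a region of 20200 bp on Peaxi162Scf00789 at 532201 to 552400, from 1339 to 505 and from 632 to 217 reads (−1.75 ± 0.044), and one of 15400 bp on Peaxi162Scf00320 at 175601 to 191000, from 1532 to 418 and from 685 to 237 reads (−1.98 ± 0.29). Both of these were covered nearly in full by each pair. The other long losses, of 13400 bp each, were on Peaxi162Scf00595 at 214801 to 228200 (−1.04 ± 0.0052) and on Peaxi162Scf00738 at 424401 to 437800 (−1.70 ± 0.67).

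The longest gaining region, 14200 bp on Peaxi162Scf00493 at 74601 to 88800, went from 198 to 538 reads over 7400 bp in replicate 1 and from 211 to 585 over its whole length in replicate 2 (1.18 ± 0.073, SD, n = 2 pairs). On Peaxi162Scf00445 at 875801 to 888600, 12800 bp went from 404 to 1099 and from 197 to 544 reads (1.18 ± 0.067), with nearly the same borders in both pairs. On Peaxi162Scf00959 at 199401 to 209800, 10400 bp went from 221 to 892 and from 75 to 442 reads (2.01 ± 0.44), the strongest change among the 5 longest gains. The remaining 2 were on Peaxi162Scf00618 at 181401 to 191200 (1.42 ± 0.35) and on Peaxi162Scf00163 at 906601 to 916200 (1.26 ± 0.30). At 7AM these 5 held 6.42 to 35.5 CPM in replicate 1 and 11.2 to 31.4 in replicate 2, summed over each pair's own islands. Those islands covered different lengths in the 2 pairs, as on Peaxi162Scf00618 with 2000 bp in replicate 1 and 9800 bp in replicate 2.

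The regions with the highest density ranged from 400 to 4800 bp. The densest loss was 400 bp on Peaxi162Scf00007 at 1989001 to 1989400, with 20.5 CPM per kb at 7AM (mean of 2 pairs), from 82 to 45 and from 62 to 20 reads. The longest of the 5 densest losses was 4600 bp on Peaxi162Scf00439 at 912601 to 917200 with identical borders in both pairs. There CPM went from 90.0 to 21.4 and from 73.8 to 28.4 (17.8 CPM per kb at 7AM, −1.73 ± 0.49). The densest gains had 9.21 to 11.3 CPM per kb at 7PM, and 2 of the 5 were neighbours on Peaxi162Scf00912. At 32601 to 33400 reads went from 16 to 109 and from 8 to 60 (2.56 ± 0.15), and at 34401 to 38200 from 87 to 401 and from 48 to 296 (2.14 ± 0.35). A gain on Peaxi162Scf00684 at 316601 to 321400 went from 191 to 533 and from 76 to 393 reads (1.65 ± 0.68). The densest gain, on Peaxi162Scf00999 at 2001 to 2400, rested on 10 and 29 reads in replicate 1 and on 15 and 39 in replicate 2.

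Listed losses lay closer together than listed gains, and losses were the larger list in each pair. Whether islands were spread evenly over the scaffolds was not tested. The gap from a lower island to the nearest listed island of the same pair had a median of 12.6 kb in replicate 1 and 14.8 kb in replicate 2, and from a higher island 25 kb and 22.6 kb. To the nearest island of the same direction the median gap was 15.2 kb and 20.8 kb for lower islands, against 131.4 kb and 76.0 kb for higher islands. Within 10 kb, 42.0% and 35.2% of lower islands had another lower one, and 13.3% and 15.3% of higher islands had another higher one. Because lower islands are the larger list, such shares differ even for scattered islands, so the direction of the nearest neighbour is better read against the share of each list. The nearest neighbour of a higher island was also higher in 31.6% and 37.5% of cases, where higher islands made up 19.7% and 29.3% of the lists. When the neighbour was within 10 kb, it was higher in 42.2% of 953 and 43.6% of 1590 cases, and beyond 10 kb in 27% and 34.6%. For lower islands the nearest neighbour within 10 kb was lower in 90.8% and 82.1% of cases, and beyond it in 79.4% and 70.9%, where lower islands made up 80.3% and 70.7% of the lists. Near neighbours thus had the same direction more often than far ones, for gains and for losses and in both pairs. No test was made, since islands are not independent draws, and some neighbours may be pieces of one longer domain.

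Among regions of one direction in both pairs, 911 of 3680 losses (24.8%) and 28 of 425 gains (6.59%) stood in chains, that is, with gaps of at most 10 kb between regions of the same direction. Because losses are far more numerous, these shares differ even for scattered regions, and no test was made. There were 397 chains of losses, 90 of them with 3 or more regions, and 13 chains of gains, of which 1 had more than 2 regions. The largest chain of losses held 6 regions over 33.2 kb of Peaxi162Scf00129 (152601 to 185800), where summed reads went from 504 to 222 and from 267 to 113. Their log2 ratios, as means of 2 pairs, ran from −2.25 to −1.19. Of the 5 loss chains with 5 regions, the most compact are named. One on Peaxi162Scf00017 (2473201 to 2484400) spanned 11.2 kb with 9.20 kb inside regions, from 301 to 102 and from 142 to 61 reads. Another stood within 25.6 kb of Peaxi162Scf00132 (667201 to 692800), with 129 to 63 and 98 to 32 reads. The chain of 4 gains covered 21 kb of Peaxi162Scf00207 (1318201 to 1339200), from 107 to 443 and from 63 to 284 reads, with log2 ratios between 1.56 and 2.40. The other 12 chains of gains had 2 regions each, and the most compact were on Peaxi162Scf00740 (113201 to 116400) and Peaxi162Scf00540 (632801 to 636400). The chain on Peaxi162Scf00740 and the pairs of gains on Peaxi162Scf00066 (507401 to 511200) and Peaxi162Scf00450 (11801 to 22600) include regions named above among the largest gains.

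Losses and gains shared scaffolds. Regions of one direction were found on 988 scaffolds, and 97 of these held 10 or more. Over all regions of one direction 3680 of 4105 were losses, and scaffolds were not tested against this share. On those 97 scaffolds the median share of losses was 90.9%, 25 had losses only, and none had more gains than losses. The lowest share, 60.0%, was on Peaxi162Scf00618 with 6 losses and 4 gains, followed by 66.7% on Peaxi162Scf00825 and on Peaxi162Scf00008, each with 8 losses and 4 gains. Over all 988 scaffolds, gains outnumbered losses on 51, of which 45 had gains only. Peaxi162Scf00016 held the most gains, 7 beside 22 losses. Counted against the highest position listed for any mark, which is a lower bound of scaffold length, the 97 scaffolds had 2.12 to 25.3 regions per Mb with a median of 7.62. Peaxi162Scf00274 was the densest, with 23 regions up to position 0.909 Mb, and 25 regions were found on Peaxi162Scf00439 up to 1.16 Mb.

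The other marks, read from their own antibodies, are independent of how the H3K27ac islands were chosen, although libraries of one replicate number may come from the same chromatin, which the labels do not say. H3K9ac, the other acetylation mark of active promoters, was mostly listed in the same direction as H3K27ac. A listed H3K9ac island lower at 7PM in at least 1 replicate overlapped 2770 of 3680 H3K27ac losses (75.3%, 73.8 to 76.7), and a higher one overlapped 43 of them (1.17%). At the 425 gains, H3K9ac was listed higher at 283 (66.6%, 61.9 to 71.1) and lower at 6 (1.41%). The 2 H3K9ac replicates contributed unequally: 73.5% of losses were met by replicate 1 and 19.2% by replicate 2, while 40% of gains were met by replicate 1 and 60.7% by replicate 2. H3K9ac of the same direction in both of its replicates met 17.5% of losses and 34.1% of gains. The H3K9ac lists are unequal, with 21714 lower and 5699 higher islands in replicate 1 and 5331 lower and 6415 higher in replicate 2. The part of this balance in the overlaps was not tested.

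**Figure D5:**
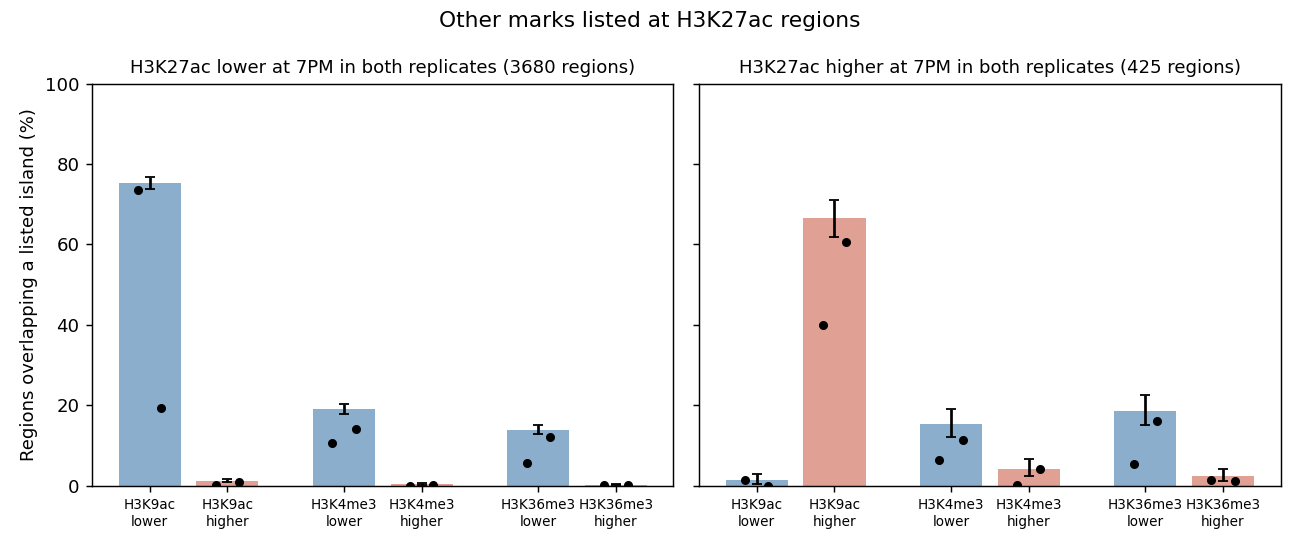
Share of H3K27ac regions (y axis, percent) lower (left) and higher (right) at 7PM in both pairs that overlap a listed island of another mark lower (blue) or higher (red) at 7PM. Bars are overlaps in at least 1 replicate with exact binomial 95% intervals and dots the 2 replicates of the mark. H3K9ac is listed lower at 75.3% of the losses and higher at 66.6% of the gains. H3K4me3 is listed lower at 19.1% of losses and 15.3% of gains, and H3K36me3 at 14.0% and 18.6%, each more often than higher.

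H3K9ac was listed more often where H3K27ac had more reads. Among the 1015 losses with 50 reads or more at the higher time of both pairs, 985 (97.0%) had a lower H3K9ac island and 9 (0.887%) a higher one. Counted by H3K9ac replicate, a lower island met 96.7% of these losses in replicate 1, 29.9% in replicate 2 and 29.6% in both. Among the 141 gains with as many reads, 136 (96.5%) had a higher H3K9ac island and 1 a lower one. For these gains the shares were 62.4% in replicate 1, 94.3% in replicate 2 and 60.3% in both. Below 20 reads, H3K9ac of the same direction in at least 1 replicate met 51.8% of 1190 losses and 34.9% of 109 gains. The stronger regions were also longer, with medians of 3800 bp for losses and 3200 bp for gains against 1400 bp and 1000 bp below 20 reads, which makes an overlap likelier; the part of length was not tested. Places listed for H3K27ac in only one pair met H3K9ac of the same direction less, at 38.0% of losses and 19.1% of gains. Opposite regions met lower H3K9ac at 19.2% and higher H3K9ac at 10.5%.

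H3K9ac reads at a region are those of whole listed islands that overlap it, which can reach beyond the region. Only regions with a listed H3K9ac island have an H3K9ac value, so its size, like that of H3K27ac, begins at the authors' limit. At such losses the median log2 ratio, with 1 read added to each count, was −1.74 in H3K9ac replicate 1 (2709 regions) and −1.31 in replicate 2 (744 regions), and at gains it was 1.57 (175 regions) and 1.72 (258 regions). All 10 of the largest gains were listed higher for H3K9ac in both of its replicates. On Peaxi162Scf00825 (229201 to 230600) H3K9ac went from 7 to 84 and from 6 to 159 reads, and on Peaxi162Scf00450 (11801 to 18000) from 65 to 363 and from 55 to 607. Of the 10 largest losses, all were listed lower for H3K9ac in replicate 1 and 9 in replicate 2, the exception being Peaxi162Scf01517 (103201 to 105400), which had 123 to 29 reads in replicate 1 and no listed island in replicate 2. Among the 5 longest losses, replicate 2 of H3K9ac had no listed island on Peaxi162Scf00789 and Peaxi162Scf00595, and among the 5 longest gains replicate 1 had none on Peaxi162Scf00493 and Peaxi162Scf00618.

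At gains of H3K27ac the methylation marks were more often listed lower than higher. H3K4me3, which sits around starts of active genes, was listed lower in at least 1 replicate at 19.1% of losses and at 15.3% of gains, and higher at 0.353% of losses and 4.24% of gains. H3K36me3, which lies over transcribed gene bodies, was listed lower at 14.0% of losses and 18.6% of gains, and higher at 0.190% and 2.35%. No test of these differences was made. The lists themselves hold 5143 and 9569 lower and 3277 and 9669 higher islands for H3K4me3, and 3702 and 11648 lower and 4021 and 5880 higher for H3K36me3. At H3K27ac gains listed in one pair only, H3K4me3 was lower at 6.51% and higher at 3.38%, and H3K36me3 lower at 9.55% and higher at 3.57%. By single replicates, H3K36me3 was lower at 5.41% of gains in replicate 1 and 16% in replicate 3. Falls over both replicates of a methylation mark were rarer, at 2.35% of gains for H3K4me3 and 2.82% for H3K36me3. Reads of these marks are again those of whole listed islands that overlap a region. On Peaxi162Scf00618 (181401 to 191200) the H3K27ac gain was listed over 2000 bp in replicate 1 and 9800 bp in replicate 2. H3K36me3 there went from 663 to 224 reads in replicate 3. On Peaxi162Scf00825 (229201 to 230600), among the largest gains, H3K4me3 went from 150 to 89 and H3K36me3 from 88 to 31 reads, each in replicate 1. On Peaxi162Scf00684 (316601 to 321400) H3K27ac rose while H3K4me3 went from 568 to 240 and from 308 to 110 reads in its replicates 1 and 2. A rise with H3K27ac was listed at 2 named gains: H3K4me3 was higher on Peaxi162Scf00439 (289401 to 291200; 130 to 264 reads) and on Peaxi162Scf00163 (906601 to 916200; 487 to 1060 reads), each in replicate 2 alone.

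Sorted by which other marks were listed in either direction, losses fell into 1958 with H3K9ac alone (53.2%), 826 with H3K9ac and a methylation mark (22.4%), 117 with methylation alone (3.18%) and 779 with no other mark (21.2%). Losses with both kinds of mark were the longest, with a median of 3200 bp against 2000 bp with H3K9ac alone and 1400 bp with no other mark. For gains the groups were 181 (42.6%), 106 (24.9%), 40 (9.41%) and 98 (23.1%) in the same order, with medians of 2000, 2500, 1400 and 1400 bp. A longer region is likelier to overlap listed islands of more marks, and the part of length in this grouping was not tested. Changes over 4-fold in both pairs were seen at 14.4% of gains with H3K9ac alone, 14.2% with both kinds, 5.0% with methylation alone and 6.12% with no other mark. For losses the shares were 8.73%, 7.51%, 2.56% and 5.01%. No test of these shares was made; the groups of gains without H3K9ac hold 2 and 6 such regions, and listing of H3K9ac moved with read count, as given above.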

How the data were processed

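Corolla chromatin was immunoprecipitated with an H3K27ac antibody at 2 times in 2 replicates, and groups and replicate numbers were taken from the labels. The submitters' processing notes name cutadapt, Bowtie2 and SICER 1.1. Their settings, like duplicate removal and the use of input, remain not given in the sources used here. The deposited lists have 13 columns without names: per island, read counts of both libraries, the same as CPM, the authors' fold (a ratio) and, per direction, the authors' p-value and FDR (at most 0.0097). The authors called islands per replicate pair. Library totals are the quotient of count and CPM.

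Islands of the 2 pairs overlapping by 1 bp or more were joined and counts summed per library. A region's counts can cover different lengths in each pair. Reads of another mark at a region are summed over all its listed islands that overlap the region, each counted whole. Ratios are those of CPM, with 3 reads in place of 0 reads. Regions in both pairs were tested with edgeR 4.0.16 (R 4.3.3; quasi-likelihood, robust dispersion, replicate block, library totals, Benjamini-Hochberg). DESeq2 1.42.0, other scalings, filters, overlaps and left-out libraries were alternatives. The fit and the joining were tested on simulated data. The labels call the replicates biological without saying which plants they came from, so p-values measure only the spread between these libraries.

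Named regions are, per direction, the 10 of largest smaller ratio where both pairs had 50 reads or more at the higher time, the 5 longest, the 5 densest and the 3 chains with most regions (ties by shortest span), and the 5 opposite regions with most reads; other regions were named after their values were seen. Members, lists and rules were chosen with earlier results of these data known. No genome sequence was used, so no sequences are shown.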

Additional observations from a re-analysis of the deposited data

How the results depend on the processing

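The replicate block is the study's pairing of libraries. Deviations of same-numbered libraries had a correlation of 0.52 over the 4371 regions. Island borders, and so the length counted, are shared within a pair and enter both deviations. The correlation therefore cannot show how far libraries of one number vary together. Without the block edgeR called 2838 regions lower and 344 higher, in place of 3638 and 418, and DESeq2 with the block called 3263 and 334. TMM gave 66 lower and median-of-ratios scaling 64; higher calls moved by at most 1. With at least 50 reads the calls were 1015 and 141 of 1157 regions, and at an FDR of at most 1e-05 they were 2091 and 257 of 2375, since fewer regions were tested. Leaving out a library without the block, the lone library being assumed to vary like the others, gave 282 lower and 78 higher without 7AM of replicate 1, 2511 and 281 without 7PM of replicate 1, 302 and 32 without 7AM of replicate 2, and 432 and 92 without 7PM of replicate 2; fewer libraries were fitted. The share of islands lower at 7PM was 70.7% to 80.3% by single pair, and with 2 pairs each lies within 1 SD of the mean by construction. The mean of pairs also stayed within 1 SD under the other settings, although the pairs parted among islands with most reads, as given above. With at least 50 reads, lower and higher islands had median lengths of 2600 and 2300 bp and densities of 4.12 and 3.80 CPM per kb; at the stricter FDR they had 1600 and 1300 bp, and lower islands 3.19 CPM per kb. The share of lower islands with another within 10 kb, 38.6% as the mean of pairs, was 28.3% at 5 kb, 52.7% at 20 kb and 31.1% at the stricter FDR, and that of higher islands, 14.3%, was 9.83%, 20.3% and 10.9%. Single pairs gave 35.2% to 42.0% and 13.3% to 15.3%, median lengths of 1200 bp (lower) and 1000 to 1200 bp (higher), and densities of 2.76 to 2.79 and 2.30 to 2.77 CPM per kb. Direction was the same at 93.9% of regions, at 94.8% with 50% reciprocal overlap, 99.9% with at least 50 reads, 98.8% at the stricter FDR and 92.3% with 1 region per scaffold. When an H3K9ac list had to cover 50% of the region, 67.8% of losses were met. With at least 50 reads H3K9ac in at least 1 of its replicates met 97.0% of losses and 96.5% of gains. Lower H3K4me3 met 8.78% of losses and 8.47% of gains with 50% covered, and 35.1% and 23.4% with at least 50 reads; lower H3K36me3 met 7.83% and 12.5%, and 28.3% and 26.95%. The cause of these moves was not tested. With 1 read added, 226 losses and 41 gains exceeded 4-fold in both pairs, in place of 275 and 49. That setting, and leaving out the densest islands, were chosen after seeing the data. Of the 20 regions of largest fold, the block, both scalings, DESeq2, the filter and the FDR limit ended no call, and 16 of 20 were tested with reciprocal overlap and passed.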

Other observations

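Replicate 2 held 10 islands denser than 50 CPM per kb, 5 lower and 5 higher at 7PM, whereas the densest island of replicate 1 had 24.8 CPM per kb. The limit was set with the values in view. The highest density was 508.3 CPM per kb on Peaxi162Scf00721 (443401 to 445600), where 2973 reads at 7AM and 8885 at 7PM were counted in 2200 bp. The island with most reads, on Peaxi162Scf00032 (2770201 to 2774000), had 4435 and 10995 reads. The strongest loss in reads was on Peaxi162Scf00207 (1702201 to 1704200), from 4296 to 1553. No region of replicate 1 was listed at any of the 10, and 9 of them met no island of H3K9ac, H3K4me3 or H3K36me3; the exception was a 200 bp island on Peaxi162Scf00450 (311001 to 311200) that met a higher H3K9ac island of replicate 1. Together the 5 higher ones held 0.153% of the 7AM and 0.357% of the 7PM reads of replicate 2, and the 5 lower ones 0.177% and 0.0591%.

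Some islands of one list touched their nearest neighbour without a gap. In replicate 1, 43 lower and 21 higher islands did so, and the neighbour had the same direction for 22 of the lower and 0 of the higher ones. In replicate 2 it was 58 lower and 51 higher islands, with the same direction for 8 and 2. Each pair's lists thus held some adjoining stretches with opposite changes. Whether the 2 pairs share such places was not examined, and the part of island calling in this was not tested.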
